A study of Mus musculus with 26 samples.

Results

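The mouse Serpina1 and Serpina3 genes encode liver-made inhibitors of serine proteases, and 10 of them were described here: Serpina1a, Serpina1b, Serpina1c, Serpina1d, Serpina1e, Serpina3c, Serpina3k, Serpina3m, Serpina3n and their relative Serpina12. They were chosen by gene symbol after earlier results of these same libraries had been seen, so their differences between groups are given as descriptions and support nothing. All 10 were found among the 47643 genes of the count table, beside 19 other Serpina genes and pseudogenes. Of these 10, 5 are Serpina1 copies, 4 are Serpina3 genes and 1 is Serpina12. Levels are given as CPM, reads of a gene scaled to a common library size over all 26 libraries. A gene is said to have risen or fallen only where a test across the whole table (edgeR's quasi-likelihood test) gave an adjusted p under 0.05 for its comparison. Log2 fold changes come from that test and carry their standard error (SE).

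The 26 libraries of mouse liver messenger RNA formed 10 groups in 5 experiments. In the first, wild-type C57BL/6J mice of 8 weeks, fed ad libitum, had corn oil (2 libraries) or TCPOBOP (2), an agonist of the mouse nuclear receptor CAR. The titles place the TCPOBOP livers at 36 h after injection and the source names at 6 h. In the second, Fxr-/- Shp-/- mice, which lack Fxr, the receptor for bile acids encoded by Nr1h4, and Shp, a co-repressor encoded by Nr0b2, were set against wild type (3 libraries each, both labelled C57BL/6J, 12 weeks, ad libitum). In the third, C3H/HeN livers at 48 h after partial hepatectomy were set against a 0 h sham (3 each, 8 to 10 weeks, ad libitum, no genotype label). In the fourth, hepatocytes from wild-type C57BL/6J mice on a 60% fat diet were set against hepatocytes from chow-fed mice (2 each, 16 weeks, fasted for 10 h). In the last, C57BL/6J mice carrying floxed Fxr and Shp alleles, with no Cre in their label, ate cholic acid or chow (3 each, 10 to 12 weeks, fasted for 8 to 10 h). All but the hepatocyte libraries were whole liver, so less RNA per hepatocyte and fewer hepatocytes cannot be told apart there. No label says which libraries came from pooled animals.

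Serpins trap their target protease by offering a bait, the reactive centre loop, near the end of the protein. When the protease cuts it, the serpin snaps into a new shape and holds the enzyme. The letters of the loop decide which protease is caught. Human alpha-1-antitrypsin, the main plasma inhibitor of neutrophil elastase, has a single gene, whereas the mouse carries several Serpina1 copies. The Serpina3 genes are the mouse relatives of human alpha-1-antichymotrypsin. Serpina3n is an acute phase gene, one that the liver raises in inflammation. Serpina12 encodes vaspin, a serpin first known as an adipokine, and inhibits kallikrein 7. Some liver serpins, Serpina1e among them, are known to differ between male and female mice under the pattern of growth hormone release.

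The stretch that encodes the reactive centre loop is shown because the copies, whose transcripts are nearly the same, differ most often there. These 60 coding bases (bases 1087 to 1146 of each coding sequence, 5′ to 3′, sense strand, from GENCODE M21 transcripts of GRCm38) start at the hinge of the loop, and capitals mark where a copy differs from Serpina1a.
Serpina1a: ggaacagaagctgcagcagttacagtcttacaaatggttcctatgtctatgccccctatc
Serpina1b: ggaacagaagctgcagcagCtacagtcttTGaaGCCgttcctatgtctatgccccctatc
Serpina1c: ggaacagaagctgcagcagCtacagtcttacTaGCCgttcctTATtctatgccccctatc
Serpina1d: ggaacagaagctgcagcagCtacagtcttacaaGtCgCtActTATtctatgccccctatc
Serpina1e: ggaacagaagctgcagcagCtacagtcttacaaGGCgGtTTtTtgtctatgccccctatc
Serpina1b differed from Serpina1a at 6 of these 60 bases, and Serpina1c, Serpina1d and Serpina1e at 8 each. Between any pair of copies 6.67% to 13.3% of the loop bases differed, against 0.933% to 3.39% of the other 1179 coding bases. Serpina1a and Serpina1c were the closest pair outside the loop, with 11 differences. Over the whole coding sequence the 5 copies were 96.3% to 98.5% identical.

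The same stretch of the Serpina3 genes is shown because Serpina3k and Serpina3n went in different directions in the double knockout described below. Capitals mark where a gene differs from Serpina3k, and the hinge was not matched in Serpina3c.
Serpina3k: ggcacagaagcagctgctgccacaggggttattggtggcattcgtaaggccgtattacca
Serpina3m: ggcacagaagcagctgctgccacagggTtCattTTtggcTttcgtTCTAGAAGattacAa
Serpina3n: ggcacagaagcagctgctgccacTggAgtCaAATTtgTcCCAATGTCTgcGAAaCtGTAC
Serpina3m differed from Serpina3k at 14 of the 60 bases and Serpina3n at 25. Coding identity among the 4 Serpina3 genes was 82.7% to 91.1%, and Serpina12 matched the other 9 members at 55.2% to 56.7%.

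All 10 genes lie within 686 kb of mouse chromosome 12 (chr12:103728156-104414329, GRCm38), a cluster of serpin genes with 28 Serpina entries on that chromosome. The 5 Serpina1 copies, Serpina12 and Serpina3c are on the minus strand, and Serpina3k, Serpina3m and Serpina3n on the plus strand. Each main transcript has 5 exons. How similar the copies are limits how they can be counted, because reads that fit several places equally were not assigned to a gene. Of all 50-base windows of the main transcripts, 19.1% of Serpina1a's and 20.7% of Serpina1c's occurred in no other transcript of the annotation. The length is assumed, as the read length is not given in the sources used here. With 100-base windows the shares were 39% and 30.7%. In windows of 50 bases the share was 52.9% for Serpina1b, 49.1% for Serpina1d and 62.1% for Serpina1e. It was 80.9% to 95.7% for the Serpina3 genes and 100% for Serpina12. Serpina3k and Serpina3m also share 60 exon bases. A copy's level was therefore compared across groups, and not with the level of another copy. The sum over copies misses the reads that fitted several of them.

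Between 13949059 and 70367874 reads per library were counted to genes, and 3 counts, taken as the smallest level a library can show, equalled 0.045 to 0.222 CPM. The CAR target Cyp2b10 went against 1 label: it stood at 3672 CPM in corn oil library 1, close to the 3420 and 2976 CPM of the TCPOBOP libraries and far from the 10.0 CPM of its group's other library. The TCPOBOP experiment is therefore given by library. Nr0b2 was at 0.563 to 1.59 CPM in the double knockout and 13.3 to 26.8 CPM in wild type, and Nr1h4 at 52.9 to 61.5 CPM against 114 to 153 CPM. The floxed livers on cholic acid, with no Cre in their label, had Nr1h4 at 64.8, 82.6 and 56.1 CPM. A level this low is thus not particular to the double knockout. Reads that aligned to several places made up 43.2% to 44.1% of the reads in the wild-type libraries, 25.5% to 26.9% in the double knockout and at most 25.1% in all others. The part of this difference in the knockout results was not tested. The hepatocyte marker Alb was present throughout, at 29982 CPM or more.

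The 5 Serpina1 copies together took 1.65% to 2.97% of counted reads in the libraries of the control, TCPOBOP and hepatectomy groups, and 0.392% to 1.22% in those of the double knockout, high fat and cholic acid groups. In wild type their summed level was 22029, 21063 and 24703 CPM. In the double knockout it was 3395, 3456 and 3639 CPM, well below every wild-type library, a log2 fold change of -2.67 ± 0.13 (SE). With cholic acid it was 10080, 9738 and 9092 CPM against 23832, 26858 and 22494 CPM on chow, without overlap, and the sum fell by 1.34 ± 0.19 (SE) on the log2 scale. In hepatocytes from the high fat diet it was 9704 and 13060 CPM against 18727 and 27695 CPM on chow, and the sum fell by 1.05 ± 0.22 (SE). Without the high fat library 1 the log2 fold change was -0.85 and no longer passed the test. After partial hepatectomy it was 21403, 25299 and 27747 CPM against 24915, 25642 and 26272 CPM in the sham livers. These groups overlapped, with a log2 fold change of -0.05 ± 0.12 (SE).

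**Figure D1:**
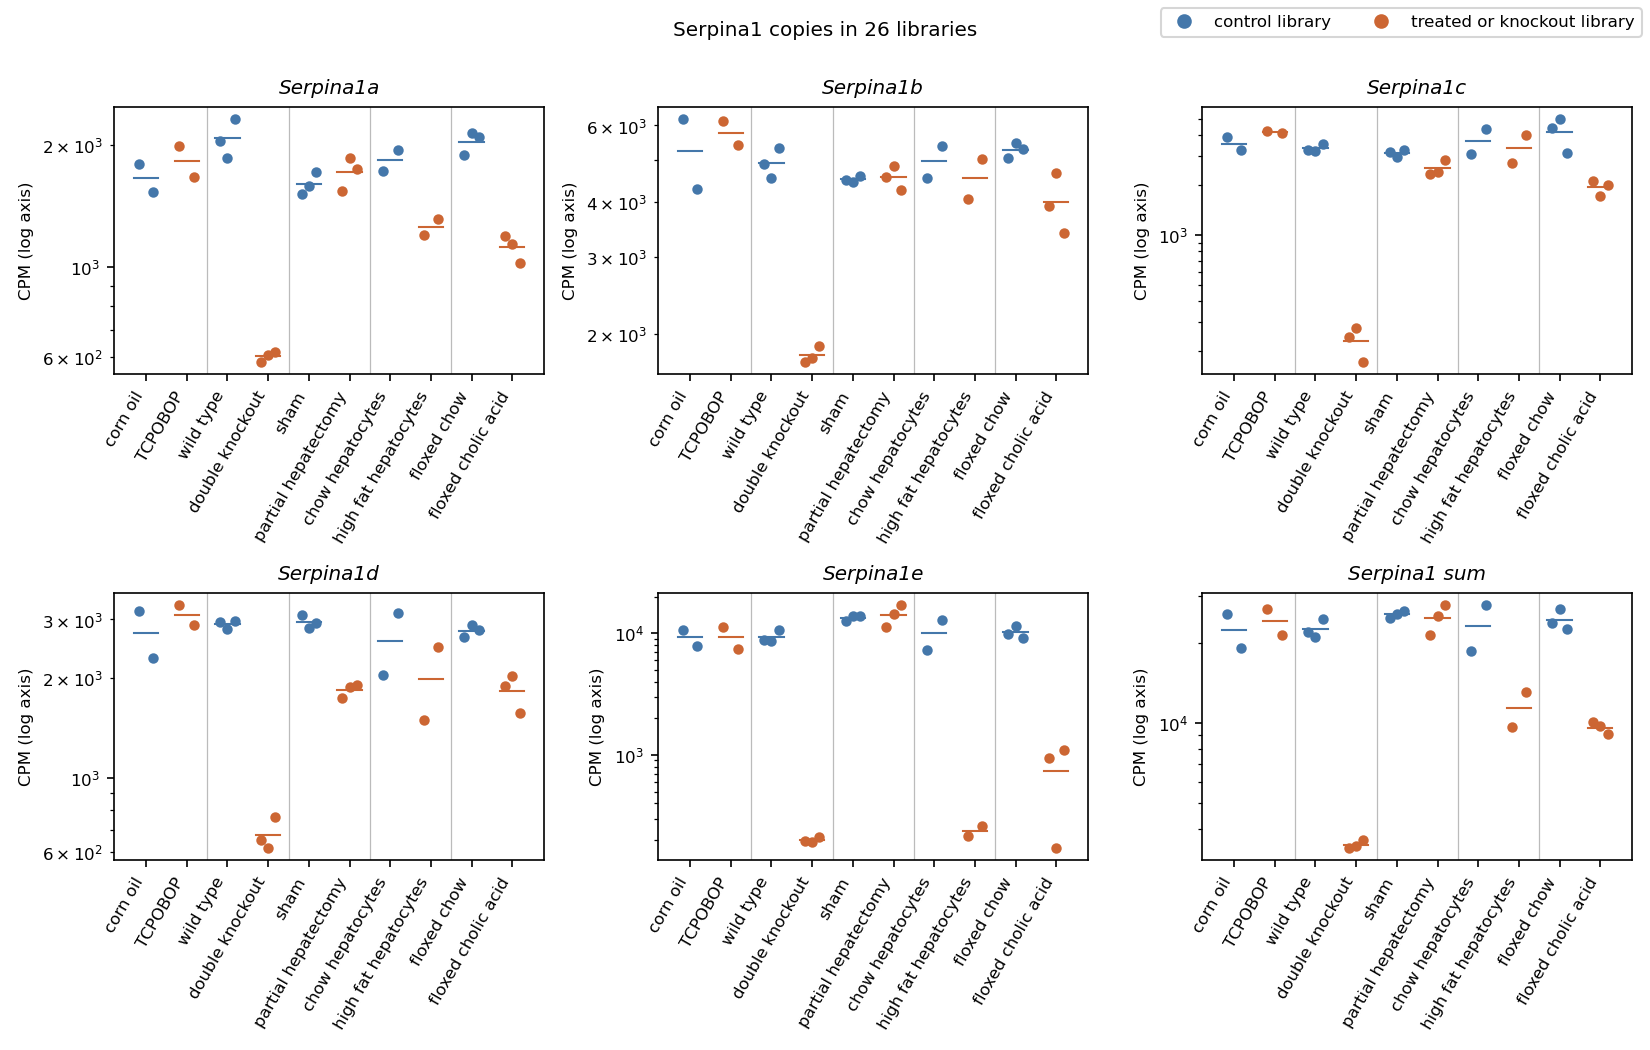
CPM (vertical log axis) of each Serpina1 copy and of their sum in every library, with 1 point per library, a line at each group mean and grey lines between the 5 experiments. Serpina1e is near 200 CPM in the double knockout and the high fat hepatocytes, against 7342 CPM or more in every library of the control groups.

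Serpina1e varied most among the copies. In wild-type liver it stood at 8856, 8601 and 10527 CPM. In the double knockout it was 195, 194 and 212 CPM, which are 4510, 4402 and 5183 reads. All 3 knockout libraries lay far under all wild-type libraries, and Serpina1e fell by 5.52 ± 0.15 (SE) on the log2 scale, 45.9-fold. Hepatocytes from chow-fed mice had 7342 and 12870 CPM, and those from the high fat diet 214 and 263 CPM. Serpina1e fell by 5.43 ± 0.32 (SE) there. On cholic acid Serpina1e was at 951, 171 and 1092 CPM against 9836, 11373 and 9193 CPM on chow, and Serpina1e fell by 3.78 ± 0.62 (SE). The cholic acid library 2 was far below the other 2 of its group, and without chow library 2 the log2 fold change of -3.68 no longer passed the test. In the C3H/HeN mice Serpina1e stayed high, at 12627, 13821 and 13766 CPM in sham livers and 11185, 14304 and 16991 CPM after hepatectomy, where the groups overlapped and the log2 fold change was 0.08 ± 0.15 (SE).

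The mix of copies changed with it. Serpina1e gave 41.2% ± 1.25 (SD, n = 3) of the Serpina1 reads in wild type, 42.8% ± 5.13 (SD, n = 2) in chow hepatocytes and 41.5% ± 0.764 (SD, n = 3) in the floxed mice on chow. Its share was 5.73% ± 0.102 (SD, n = 3) in the double knockout, 2.11% ± 0.138 (SD, n = 2) on the high fat diet and 7.73% ± 5.33 (SD, n = 3) on cholic acid. In C3H/HeN livers it was 52.3% ± 1.61 (SD, n = 3) in sham and 56.7% ± 4.49 (SD, n = 3) after hepatectomy. The share of Serpina1b was higher where that of Serpina1e was low: 51.1% ± 0.401 (SD, n = 3) in the double knockout against 21.8% ± 0.357 (SD, n = 3) in wild type, and 40.2% ± 2.41 (SD, n = 2) on the high fat diet against 21.9% ± 3.42 (SD, n = 2) on chow. These shares count only reads that fit 1 copy, so they compare groups and are not the shares of the proteins.

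**Figure D2:**
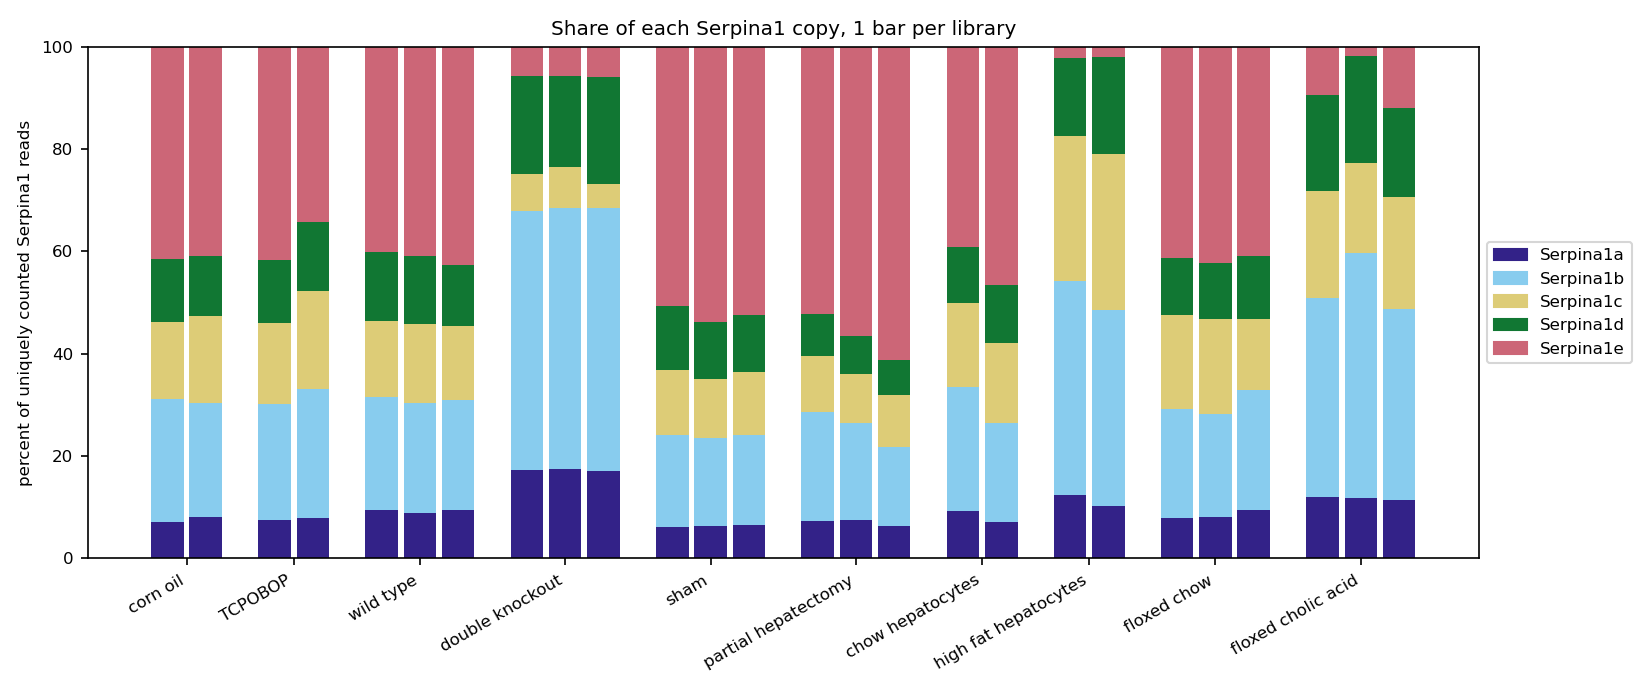
Share of each Serpina1 copy among the uniquely counted Serpina1 reads (vertical axis, percent), with 1 stacked bar per library in each of the 10 groups. Serpina1e fills 34.3% to 61.2% of every bar except those of the double knockout, high fat and cholic acid libraries, where it fills 1.76% to 12%.

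Taken without Serpina1e, the other 4 copies separated these conditions further. Their summed level in the double knockout was 3200, 3262 and 3427 CPM against 13172, 12462 and 14176 CPM in wild type. On the high fat diet it was 9490 and 12797 CPM against 11384 and 14825 CPM on chow, so the groups overlapped. On cholic acid it was 9129, 9567 and 8000 CPM against 13996, 15485 and 13301 CPM on chow, lower in every library.

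Serpina1c was the second most affected copy in the knockout. It was at 3279, 3230 and 3552 CPM in wild type and 244, 277 and 172 CPM in the double knockout, and it fell by 3.84 ± 0.19 (SE) on the log2 scale. Its cholic acid libraries had 2112, 1728 and 2001 CPM against 4401, 4996 and 3132 CPM on chow, a log2 fold change of -1.10 ± 0.22 (SE). The groups did not overlap, yet the call was lost without any of 5 of the 6 libraries (log2 fold change -1.16 to -0.95 in those fits). On the high fat diet it was 2736 and 3985 CPM against 3070 and 4357 CPM, and after hepatectomy 2347, 2402 and 2825 CPM against 3181, 2941 and 3244 CPM. Neither of these passed the test, with log2 fold changes of -0.17 ± 0.23 (SE) and -0.31 ± 0.10 (SE).

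Serpina1a, Serpina1b and Serpina1d moved less. In the double knockout Serpina1a was at 583 to 617 CPM against 1862 to 2320 CPM, Serpina1b at 1722 to 1875 CPM against 4554 to 5338 CPM, and Serpina1d at 616 to 764 CPM against 2815 to 2966 CPM. All 3 fell, with log2 fold changes of -1.77 ± 0.11, -1.44 ± 0.11 and -2.08 ± 0.12 (SE). Serpina1a was also lower on the high fat diet, at 1199 and 1314 CPM against 1724 and 1952 CPM, a log2 fold change of -0.58 ± 0.10 (SE) that no longer passed without the high fat library 1 (-0.51). On cholic acid Serpina1a was at 1196, 1139 and 1024 CPM against 1888, 2142 and 2098 CPM, a log2 fold change of -0.87 ± 0.17 (SE). That call, too, was lost without any of 5 of the 6 libraries, at -0.92 to -0.81. Serpina1d was the only Serpina1 copy called after hepatectomy, at 1746, 1885 and 1901 CPM against 3098, 2834 and 2935 CPM. It fell by 0.68 ± 0.08 (SE). Serpina1b passed the test in the knockout comparison alone.

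Serpina3k, the most abundant Serpina3 gene here, gave 92.5% to 96.6% of the Serpina3 reads in chow hepatocytes and in the wild-type and floxed chow livers other than floxed chow library 3 (87.5%). Serpina3k is an inhibitor of tissue kallikrein. It was at 14312, 15661 and 16960 CPM in wild type and 2597, 2444 and 3080 CPM in the double knockout. Every knockout library was far lower, and Serpina3k fell by 2.51 ± 0.15 (SE) on the log2 scale. On cholic acid it was at 3972, 3692 and 4683 CPM against 16610, 16926 and 11719 CPM on chow, a log2 fold change of -1.87 ± 0.23 (SE). In high fat hepatocytes it was at 4957 and 5959 CPM against 13871 and 15146 CPM, a log2 fold change of -1.44 ± 0.13 (SE). After hepatectomy it was at 8625, 10675 and 10926 CPM against 9454, 11116 and 11354 CPM, where the groups overlapped (log2 fold change -0.08 ± 0.13, SE).

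**Figure D3:**
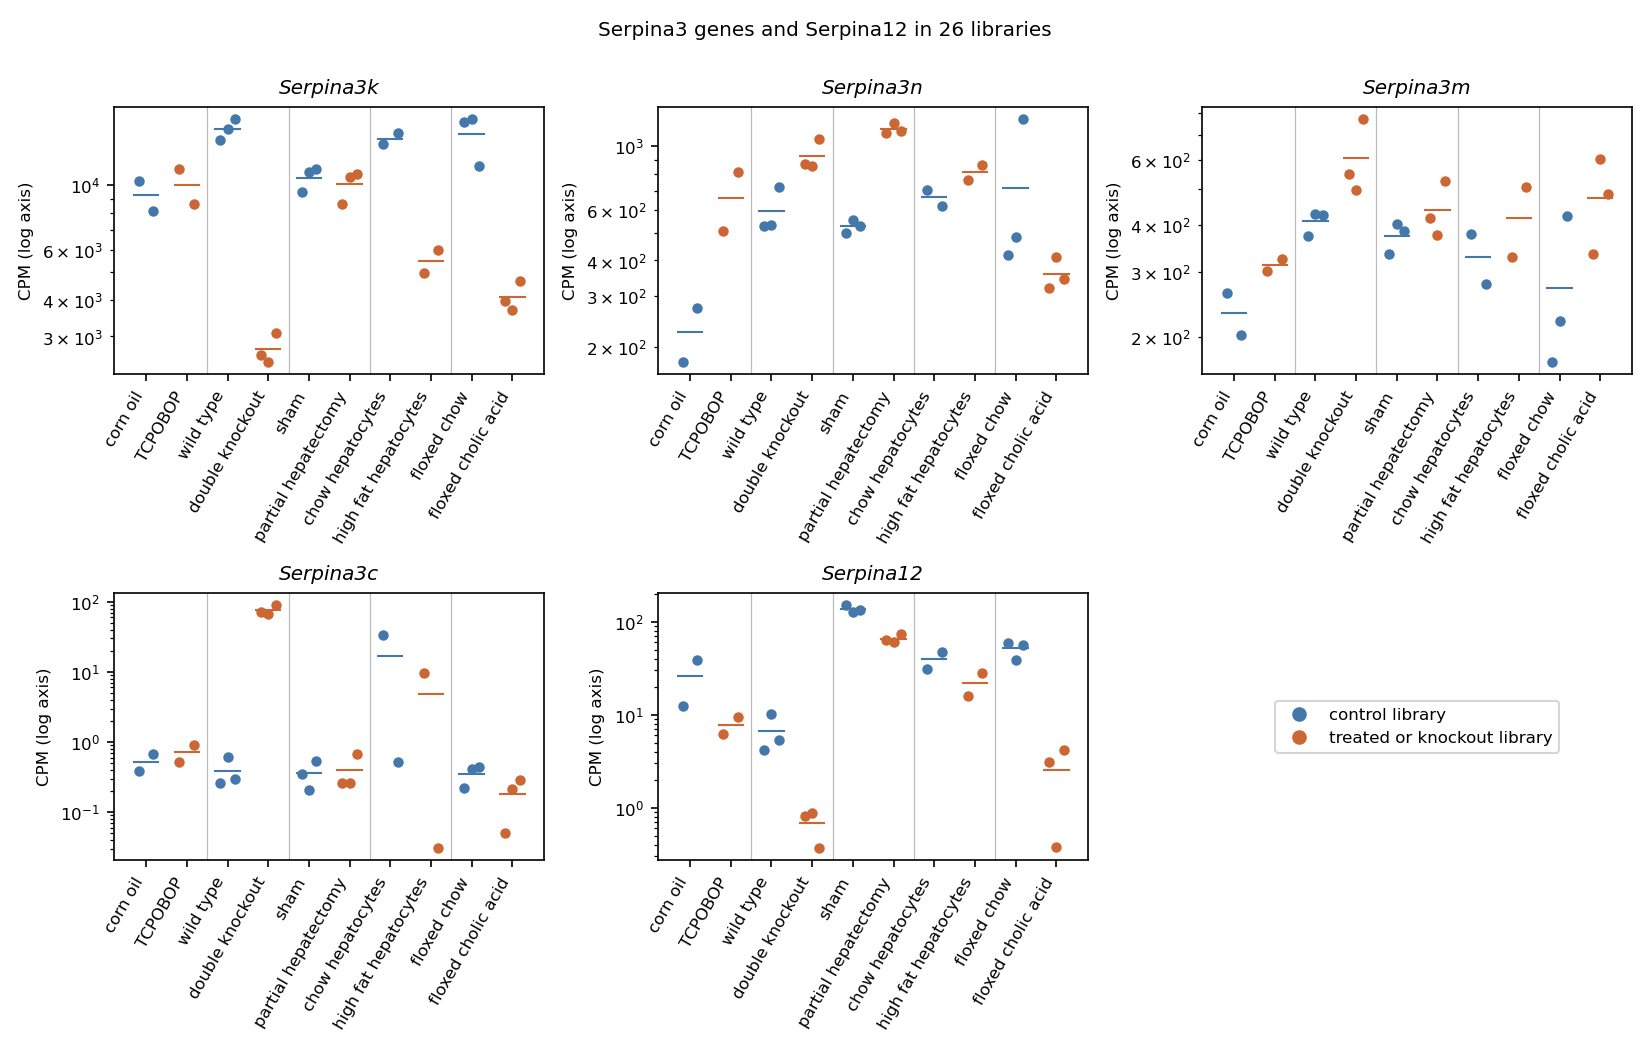
CPM (vertical log axis) of the 4 Serpina3 genes and Serpina12 in every library, with 1 point per library and a line at each group mean. Serpina3k is lower in every library of the double knockout, high fat and cholic acid groups than in their controls, while Serpina3c is above 60 CPM only in the double knockout.

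Serpina3n, the acute phase member, rose after surgery and in the knockout, where Serpina3k fell. Sham livers had 499, 553 and 526 CPM and hepatectomy livers 1111, 1211 and 1132 CPM, all higher. It rose by 1.13 ± 0.08 (SE) on the log2 scale. The double knockout had 871, 852 and 1060 CPM against 527, 531 and 724 CPM in wild type, a rise of 0.67 ± 0.15 (SE). This call was lost in a fit over all 26 libraries (0.64). Wild-type library 3, the highest of its group for Serpina3n, also had 444 CPM of the acute phase gene Saa2 against 30.6 and 12.9 CPM in the others, and without it the log2 fold change was 0.82 and passed. High fat hepatocytes had 764 and 860 CPM against 707 and 621 CPM, which did not pass the test (0.26 ± 0.11, SE). These did not overlap, as for 68.2% of all genes tested there. On cholic acid it was at 322, 412 and 344 CPM against 419, 482 and 1245 CPM on chow. The chow library 3 stood apart, and the log2 fold change of -0.99 ± 0.39 (SE) did not pass the test and was -0.33 without it. That chow library also had 3777 CPM of Saa2, a serum amyloid gene, against 11.3 and 21.4 CPM in the other chow livers. The part of these Saa2 levels in the Serpina3n values was not tested. As a share of the Serpina3 reads, Serpina3n went from 3.55% ± 0.407 (SD, n = 3) in wild type to 21.5% ± 0.472 (SD, n = 3) in the double knockout, and from 4.57% ± 0.282 (SD, n = 3) in sham to 9.94% ± 0.975 (SD, n = 3) after hepatectomy.

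**Figure D4:**
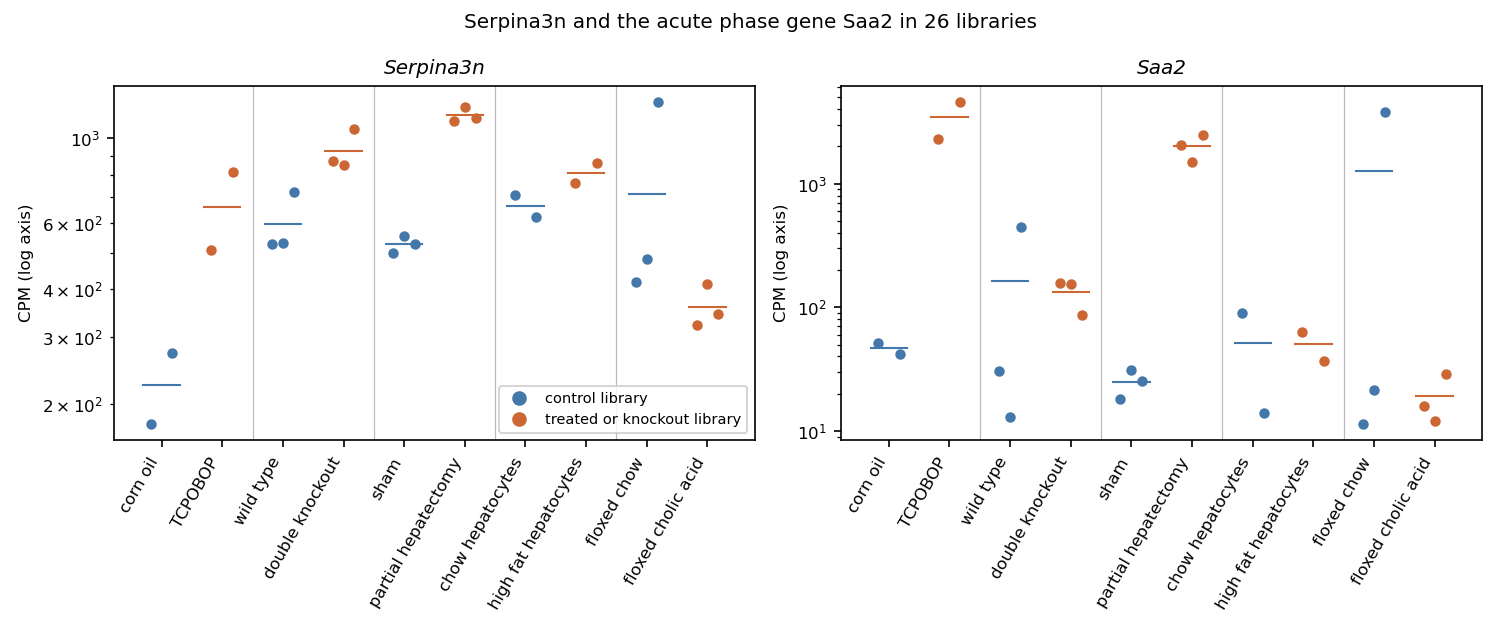
CPM (vertical log axis) of Serpina3n and of the acute phase gene Saa2 in every library, with 1 point per library and a line at each group mean. Hepatectomy, TCPOBOP and floxed chow 3 libraries are at 1507 CPM or more for Saa2, and the highest Serpina3n point of all, 1245 CPM, is the same floxed chow library.

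Serpina3m, of which less is known in liver, was at 551, 497 and 772 CPM in the double knockout against 376, 429 and 426 CPM in wild type, and rose by 0.59 ± 0.16 (SE). Its call was lost without wild-type library 1 (0.52) or 3 (0.60). It passed in none of the other comparisons with all libraries in. Its cholic acid libraries had 335, 602 and 485 CPM against 171, 221 and 424 CPM, overlapping through chow library 3, with a log2 fold change of 0.80 ± 0.36 (SE) that became 1.27 and passed the test without that library.

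Serpina3c was at 0.911 CPM or less in every library outside the double knockout and the hepatocyte library 1 of each diet. Wild-type libraries held 5, 10 and 5 reads of it (0.258, 0.602 and 0.294 CPM). The double knockout held 1628, 1532 and 2185 reads (70.5, 67.6 and 89.3 CPM), a rise of 7.65 ± 0.24 (SE) on the log2 scale. Chow hepatocytes held 1736 reads in library 1 and 30 in library 2 (33.6 and 0.519 CPM), and high fat hepatocytes 637 in library 1 and 2 in library 2 (9.55 and 0.0306 CPM). Library 1 was thus far above library 2 on either diet, and within each number the high fat library was the lower. The log2 fold change of -1.86 ± 1.89 (SE) ran from -9.05 to 3.18 when single libraries were left out. Sham and hepatectomy livers held 7 to 25 reads. The cholic acid comparison held at most 6 reads in any library and left Serpina3c untested.

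Serpina12 spanned 0.368 to 151 CPM, with a 199-fold ratio between its highest group mean, sham, and its lowest, the double knockout. Sham livers had 151, 128 and 135 CPM and hepatectomy livers 63.1, 60.2 and 74.4 CPM, a log2 fold change of -1.06 ± 0.11 (SE). On cholic acid it was at 3.13, 0.377 and 4.19 CPM against 59.2, 39.1 and 56.8 CPM on chow, a log2 fold change of -4.31 ± 0.62 (SE), the largest in size of the 9 members tested there. Wild type, at 4.18, 10.3 and 5.41 CPM, was lower than every other control group, and the double knockout, at 0.823, 0.883 and 0.368 CPM, was lower again, a log2 fold change of -3.24 ± 0.43 (SE). High fat hepatocytes had 15.8 and 27.8 CPM against 31.3 and 47.9 CPM. These did not overlap, as for 68.2% of all genes tested there, and the log2 fold change of -0.88 ± 0.31 (SE) did not pass the test.

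Counted over the 10 members, the double knockout had 10 called, 3 up and 7 down, where 40.4% of all 13473 genes tested were called. Partial hepatectomy had 3 called, 1 up and 2 down, beside 30.7% of 13753 genes. The high fat diet had 3 called, all down, beside 24% of 13892 genes. Cholic acid had 5 of 9 tested members called, all down, beside 4.77% of 12577 genes. Median log2 fold changes of the members tested were -1.93, 0.05, -0.49 and -0.99 in that order, beside medians over all genes tested of -0.01, 0.01, 0.01 and 0.01. Since the members were chosen from these same comparisons, nothing is read from the shares. All 10 members passed the filter on low counts in every comparison but cholic acid, where Serpina3c did not. In the knockout comparison Serpina3c passed it through the double knockout libraries, where it is high.

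**Figure D5:**
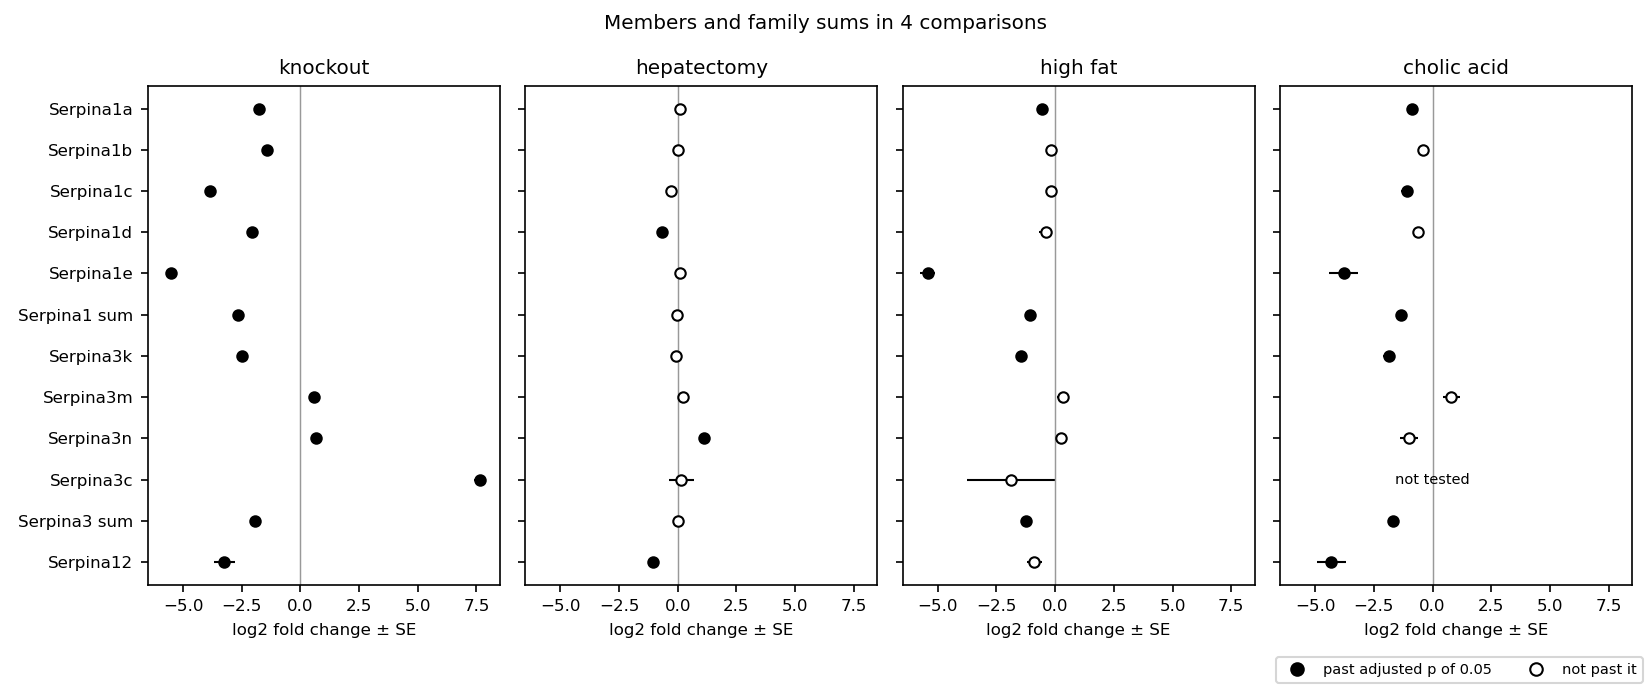
Log2 fold change (horizontal axis, bars are SE) of each member and of the 2 family sums in 4 comparisons, filled where the adjusted p was under 0.05. Serpina1e, Serpina3k and both sums lie left of 0 in the knockout, high fat and cholic acid panels, and near 0 after hepatectomy.

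The knockout and cholic acid experiments, which have separate control livers, were also compared effect against effect. Of the 10 members, 6 differed in this test, beside 13.9% of all 13935 genes. Serpina3c is counted among them, although it entered this fit through the double knockout libraries and had at most 6 reads in any cholic acid or floxed chow library. The Serpina1 sum fell further in the knockout, by 1.33 ± 0.21 (SE) on the log2 scale, and Serpina1c by 2.73 ± 0.29 (SE). Serpina1e (-1.73 ± 0.64, SE), Serpina3k (-0.63 ± 0.26, SE) and the Serpina3 sum (-0.22 ± 0.24, SE) did not pass. Against the high fat diet, 7 of 10 members differed from the knockout effect, beside 16.1% of all 14280 genes. Serpina1e was not among them (-0.08 ± 0.29, SE), a difference whose size is under 1 SE, while Serpina1c was (-3.66 ± 0.33, SE). Serpina3c is counted among them (9.53 ± 2.35, SE), although it is high in the double knockout and its high fat effect ran from -9.05 to 3.18 with single libraries left out. Hepatectomy differed from cholic acid for 6 of 9 members, beside 13% of all 13985 genes, with Serpina1e at 3.86 ± 0.67 (SE), Serpina3n at 2.13 ± 0.45 (SE) and Serpina3k at 1.80 ± 0.26 (SE).

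In the TCPOBOP experiment no member was called, and neither was any other gene (0% of 12785; 751 genes had an unadjusted p under 0.05, and DESeq2's Wald test called 109). Serpina3n was at 507 and 814 CPM with TCPOBOP and 177 and 272 CPM in its controls, without overlap, as for 35.4% of all genes. The acute phase gene Saa2 was at 2293 and 4555 CPM with TCPOBOP and 51.8 and 41.5 CPM with corn oil. The part of an acute phase difference in the Serpina3n value was not tested. The log2 fold change of Serpina3n was 1.55 ± 0.35 (SE) with all libraries, 1.28 ± 0.27 (SE) once corn oil 1 was left out and 1.90 ± 0.28 (SE) once corn oil 2 was, and it passed in both of the latter, where the lone control library is assumed to vary like the others. Serpina12 was at 6.15 and 9.47 CPM against 12.5 and 39.2 CPM, with a log2 fold change of -1.73 ± 0.59 (SE). It was -2.33 ± 0.23 (SE) and passed without corn oil 1, and was -0.69 ± 0.28 (SE) and did not pass without corn oil 2. Serpina3m passed as well without corn oil 1 (0.63 ± 0.14, SE), beside 9.35% of 13190 genes, and did not pass without corn oil 2 (0.25 ± 0.14, SE), beside 3.14% of 13139 genes. The Serpina1 sum was 26916 and 21472 CPM against 25739 and 19173 CPM, and the groups overlapped.

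Markers of other liver cells moved in some of these comparisons. Of all genes tested, 40.4% were called in the knockout, 24% on the high fat diet, 30.7% after hepatectomy and 4.77% on cholic acid. In the double knockout 5 of 6 cholangiocyte markers were called up (summed level 55.0 to 129 CPM against 26.5 to 36.4 CPM) and 5 of 7 stellate cell and fibroblast markers (384 to 439.6 CPM against 179.5 to 291 CPM). The neutrophil markers summed to 10.8 to 20.1 CPM against 0.882 to 2.53 CPM, with Ly6g and Mpo at 0 in all 3 knockout libraries. Other lists went both ways in the knockout. Of 9 macrophage markers 2 were up and 1 down (317.5 to 642 CPM against 218.5 to 472.5 CPM). Of 6 sinusoidal endothelial markers 2 were up and 1 down (131 to 189.2 CPM against 90.56 to 168 CPM). In the high fat hepatocytes all 6 sinusoidal endothelial markers were up (114 to 119 CPM against 46.0 to 51.8 CPM), as were 6 of 9 macrophage markers (78.0 to 86.9 CPM against 45.0 to 49.6 CPM) and 5 of 7 stellate cell and fibroblast markers (40.2 to 42.7 CPM against 9.93 to 16.6 CPM). The 5 hepatocyte markers summed to 92025 to 92485 CPM on the high fat diet and 89510.0 to 93479 CPM on chow, and to 59449 to 79620.0 CPM in the double knockout and 80724 to 108195 CPM in wild type, with Apoa1 called down in both comparisons. After hepatectomy 3 of 5 hepatocyte markers were called down (Alb, Apoa1 and Asgr1), with a summed level of 89954 to 101206 CPM against 118290.0 to 124329 CPM in sham livers. Of the other cells' markers, Col1a1 and Col3a1 of 7 stellate cell and fibroblast markers, Marco of 9 macrophage markers and Krt19 of 6 cholangiocyte markers were up there, and Lyve1 of 6 sinusoidal endothelial markers was down. The part of all these markers in the serpin values was not tested. With cholic acid 1 marker of other cells was called, the stellate gene Reln, and no hepatocyte marker.

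Other clade A serpins went in both directions. Of 9 tested in the knockout 5 rose and 3 fell (88.9% called against 40.4% of all genes), with Serpina7, thyroxine-binding globulin, at 3.58 ± 0.18 (SE), Serpina6, corticosteroid-binding globulin, at 2.58 ± 0.13 (SE) and Serpina3g at -1.80 ± 0.39 (SE). Serpina3h and Serpina3i, with at most 3 reads in any wild-type library, passed the filter through the double knockout libraries, where they are high. Serpina4-ps1, with at most 4 reads in any double knockout library, passed it through wild type. The part of these genes in the count is therefore fixed by the filter. After hepatectomy 1 of 9 rose and 1 fell (22.2% against 30.7%), Serpina10 (0.36 ± 0.10, SE) and Serpina6 (-1.04 ± 0.09, SE). On the high fat diet 4 of 9 rose and 1 fell (55.6% against 24%), led by the pseudogene Serpina4-ps1 (-1.85 ± 0.14, SE), Serpina3g (1.82 ± 0.19, SE) and Serpina7 (1.59 ± 0.09, SE). On cholic acid 3 of 8 fell (37.5% against 4.77%), among them Serpina4-ps1 (-6.95 ± 1.42, SE), which ranged from 4.57 to 350.1 CPM among the chow livers, and Serpina11 (-1.14 ± 0.19, SE).

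Among serpins of other clades 5 of 13 rose and 4 fell in the knockout (69.2% called against 40.4% of all genes), with Serpine2 at -3.23 and Serpinb1a at 2.89 on the log2 scale. After hepatectomy 3 of 14 rose and 4 fell (50% against 30.7%), with Serpinb8 at 2.30, Serpinb9 at -0.97 and the collagen chaperone Serpinh1 at 0.87. On the high fat diet 4 of 13 rose and 1 fell (38.5% against 24%), with Serpine2 at -2.75, Serpinb8 at 1.94 and Serpinb9 at 0.49. On cholic acid 1 of 13 fell (7.69% against 4.77%), Serpinf1 (-0.84). Of plasma inhibitors that are not serpins, the macroglobulin-family gene Mug1 fell in 3 comparisons, from 8297 ± 376 to 1579 ± 232 CPM (SD, n = 3) in the knockout, from 10569 ± 903 to 5385 ± 124 CPM (SD, n = 2) on the high fat diet and from 3567 ± 754 to 1561 ± 173 CPM (SD, n = 3) on cholic acid. In this list 3 of 22 rose and 6 fell in the knockout (40.9% called, near the 40.4% of all genes), with Mug2 at -1.71 and the pseudogene Mug-ps1 at -1.47. After hepatectomy 9 of 24 rose and 3 fell (50% against 30.7%), with Itih3 at 1.46, Itih4 at 1.04 and Timp3 at -1.10. On the high fat diet 7 of 22 rose and 5 fell (54.5% against 24%), with Wfdc2 at 3.29 and Tfpi at 1.39, and on cholic acid Mug1 was the only gene of 21 called.

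Most proteases that these serpins are known to meet come from leukocytes, and 2 to 5 of 14 listed genes were abundant enough to test. The list also holds Mpo, a peroxidase and not a protease. Plasminogen (Plg) fell by 0.38 ± 0.10 (SE) in the knockout. After hepatectomy Prtn3, a neutrophil protease, rose from 0.587 ± 0.174 to 9.35 ± 4.38 CPM (SD, n = 3) and prothrombin (F2) fell by 0.34 ± 0.09 (SE). The 6 neutrophil markers, a list without Prtn3, summed to 0.753 to 3.27 CPM after hepatectomy and 0.467 to 0.760 CPM in sham livers. Only 1 of these markers could be tested there, and it was not called. None of the 2 tested passed on the high fat diet or cholic acid. A list of 15 genes drawn up for folding, export and clearance of serpins had 2 up and 6 down in the knockout (53.3% called against 40.4% of all genes), with the chaperones Calr at -1.18 and Hspa5 at -0.78. The list also holds Gba2, a glucosylceramidase that is no such gene, at -0.68. The cargo receptor Surf4 (0.26) and the coat protein gene Sec24d (0.29) rose after hepatectomy (13.3% against 30.7%), 5 fell on the high fat diet (33.3% against 24%), with Gba2 at -1.57, Sec24d at -0.79 and Edem3 at -0.46, and none passed on cholic acid.

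Male-type liver genes, which depend on pulses of growth hormone, fell with Serpina1e. All 18 fell in the knockout (median -6.24), 17 of 18 on the high fat diet (median -2.43) and 14 of 18 on cholic acid (median -2.83), beside medians over all genes tested of -0.01, 0.01 and 0.01. The shares called were 100%, 94.4% and 77.8%, against 40.4%, 24% and 4.77% of all genes. Those named by rule were Mup7 (-11.90), Mup1 (-10.91) and Slco1a1 (-10.54) in the knockout, Selenbp2 (-4.84), Ugt2b38 (-4.28) and Hsd3b5 (-4.27) on the high fat diet, and Selenbp2 (-6.07), Hsd3b5 (-5.98) and Ugt2b38 (-4.89) on cholic acid. After hepatectomy, where Serpina1e did not pass the test, 10 of 18 fell and 2 rose (median -0.66, 66.7% called against 30.7%). Named there were Cyp4a12a at -1.41, Mup21 at -1.34 and Elovl3 at 1.27. Mup copies share reads as Serpina1 copies do. The sex of the mice is not given in this report, and its part in the male-type and female-type values was not tested.

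Female-type liver genes went the other way in the knockout and, for most, on the high fat diet. In the knockout 20 of 22 rose and none fell (90.9% called against 40.4% of all genes). Among them were Cyp2b9 at 308 ± 20.6 CPM against 0.0798 ± 0.0921 CPM and Sult2a1 at 1187 ± 166 CPM against 0.167 ± 0.0938 CPM (SD, n = 3). Sult2a2 was at 251 ± 27.9 CPM (SD, n = 3) with no read in wild type. Sult2a1, Sult2a2 and Cyp2b9 passed the filter on low counts in the knockout comparison through the double knockout libraries, where they are high, and 11 to 14 of the listed genes could be tested in the other comparisons. Their part in the count is therefore fixed by the filter. On the high fat diet 8 of 14 rose and 2 fell (71.4% against 24%), with Cyp2b9 at 8.29, Ntrk2 at 7.36 and Cyp2a22 at 6.14 on the log2 scale. Ntrk2, at 0.0968 to 0.121 CPM on chow, passed the filter through the high fat libraries, where it is high. On cholic acid 2 of 11 rose (18.2% against 4.77%), Cux2 (5.68 ± 1.02, SE) and Prom1 (4.68 ± 0.63, SE). Both passed the filter through the cholic acid libraries, where they are high. On chow Cux2 was at 0.136 to 1.6 CPM and Prom1 at 0.148 to 0.942 CPM. The part of Ntrk2, Cux2 and Prom1 in these counts is therefore also fixed by the filter. After hepatectomy 1 of 14 rose and 6 fell (50% against 30.7%), with Cyp2c40 at -5.02, Cux2 at -3.65 and Fmo2 at -2.37.

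Of 26 regulators and receptors tested, 4 rose and 12 fell in the knockout (61.5% called against 40.4% of all genes). Beside the deleted Nr0b2, the named ones were the repressor Bcl6 (-2.39 ± 0.40, SE) and the interleukin 1 receptor Il1r1 (-2.05 ± 0.21, SE). The growth hormone receptor Ghr fell after hepatectomy (-0.77 ± 0.10, SE) and on cholic acid (-1.32 ± 0.21, SE). Nr0b2 rose after hepatectomy (1.99 ± 0.38, SE) and on cholic acid (1.96 ± 0.27, SE), and the female-type repressor Cux2 was the third gene named in each. The list held 4 up and 3 down on cholic acid (26.9% against 4.77%). It was near the share of all genes after hepatectomy, with 2 up and 7 down (34.6% against 30.7%), and on the high fat diet, with 3 up and 3 down (23.1% against 24%), where Il1r1 was at -2.25, Onecut1 at 1.69 and Il6ra at -1.19. Acute phase genes rose beside Serpina3n after hepatectomy, 16 of 23 with none down (69.6% called against 30.7% of all genes), led by Saa2 (6.32 ± 0.29, SE), Lcn2 (5.07 ± 0.39, SE) and Orm2 (5.01 ± 0.33, SE). In the knockout 12 rose and 3 fell (65.2% against 40.4%), with Orm2 at 3.69, Orm3 at 3.55 and Il1rn at 2.78. On the high fat diet 5 rose and 1 fell (26.1%, near the 24% of all genes), with Lcn2 at 1.95, Orm3 at 1.84 and Il1rn at 1.35. On cholic acid none of 23 was called.

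The 3 members whose log2 fold changes ranged most widely over the knockout, hepatectomy, high fat and cholic acid comparisons were Serpina3c (range 9.51), Serpina1e (5.6) and Serpina1c (3.67). The genes most like them were found by the root mean square difference of log2(CPM + 0.5), each library taken relative to its own control mean, over the 11 treated libraries outside TCPOBOP and among 11342 named genes with a mean of at least 1 CPM. For Serpina1e they were Mup9 (1.15), Selenbp2 (1.25) and Mup17 (1.37), against 4.33 for Serpina1e's own departure from its controls. Selenbp2 was at 1.19 to 5.21 CPM in the double knockout and 127 to 206 CPM in wild type, 38.2 and 47.6 CPM on the high fat diet and 944 and 1466 CPM on chow. For Serpina1c they were Ndufs5 (0.475), Rpl34 (0.55) and Lrit2 (0.582). The respiratory chain gene Ndufs5 was at 0.0883 to 0.346 CPM in the double knockout, 10.4 to 16.5 CPM in wild type and 28.7 to 53.9 CPM in the other groups together. The ribosomal protein gene Rpl34 was at 1.77 to 2.51 CPM in the double knockout and 28.3 to 37.9 CPM in wild type. For Serpina3c they were Rps3a3 (1.10), Sult2a3 and Cd1d2 (1.16), with Sult2a3 between the other two. Rps3a3 was at 77.0 to 100.5 CPM in the double knockout and 0.241 to 0.826 CPM in wild type, and it was also high, at 54.9 to 68.0 CPM, in the C3H/HeN livers and at most 0.701 CPM in the other C57BL/6J groups. Cd1d2 was at 27.6 to 33.4 CPM in the double knockout, 1.51 to 2.16 CPM in the C3H/HeN livers and at most 0.155 CPM in the others. Unique windows were counted for the 10 members only. The part of reads that fit several places in the Ndufs5, Rpl34 and Rps3a3 counts was not tested. The strain background of the double knockout beyond its C57BL/6J label was not tested.

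Promoter sequence was looked at because copies with nearly the same promoter had unlike changes in their counted reads. RefSeq promoters of GRCm38.p6, from 250 bases before to 50 after each gene start, were found for 8 of the 10 members, all but Serpina3k and Serpina3m. The 5 Serpina1 promoters were 91.3% to 97.1% identical over 170 aligned bases. The letters GTTAAT, a half-site of the liver factor HNF1, were searched on both strands and occurred in all 5 on the sense strand, starting 16 to 78 bases before the gene start, against 7.1% of 32851 promoters. Serpina3c had them on the other strand, and Serpina12 and Serpina3n had no match. The 60 bases that end with it are shown for 3 copies, 5′ to 3′ on the minus strand of chromosome 12, with the half-site in capitals.
Serpina1a (chr12:103863635-103863694): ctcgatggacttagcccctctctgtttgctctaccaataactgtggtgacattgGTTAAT
Serpina1c (chr12:103904972-103905031): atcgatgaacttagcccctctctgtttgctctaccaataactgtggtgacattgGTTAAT
Serpina1e (chr12:103956970-103957029): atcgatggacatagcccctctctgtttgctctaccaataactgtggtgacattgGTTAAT
Serpina1c and Serpina1e each differed from Serpina1a at 2 of these 60 bases, and their log2 fold changes in the knockout were -3.84, -5.52 and, for Serpina1a, -1.77. Only 20.7% of the 50-base windows of Serpina1c and 19.1% of those of Serpina1a were unique. Reads that aligned to several places were also more frequent in wild type than in the double knockout. The part of such reads in these values was not tested. The letters TTCNNNGAA, bound by STAT factors, occurred in none of the 8 windows and in 8.3% of all promoters. The letters TTGCNNAA, bound by C/EBP factors, occurred in those of Serpina1a, Serpina1b, Serpina1d, Serpina1e and Serpina12 and in 10.8% of all promoters. A match describes the letters and is not evidence of binding.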

How the data were processed

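Gene read counts of 26 mouse liver libraries (TruSeq stranded mRNA) were used as deposited. The authors made these counts with bcl2fastq 2.17.1.14, Trimmomatic, STAR 2.4.2a, Picard 1.119 and HTSeq on GRCm38 (mm10), per the submitters' processing notes; the annotation version, read length and strand setting are not given in the sources used here. HTSeq summary lines (reads that aligned to several places were 16.6% to 44.1% of reads, ambiguous reads 1.02% to 3.73%) were left out of library sizes. Totals of 13949059 to 70367874 counts per library set the precision of low genes.

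Symbols came from Ensembl identifiers, matched for 47224 of 47643 genes. Each treated group was compared with its own control by edgeR 4.0.16 (R 4.3.3; filterByExpr with a minimum count of 10 and total of 15, TMM scaling, quasi-likelihood test), with Benjamini-Hochberg adjustment over all genes tested and a threshold of 0.05. Family sums replaced their members' counts before a separate fit. Differences of effects were interaction terms. The procedure was tested on simulated data. CPM used TMM over all 26 libraries. The members and gene lists were chosen with earlier results of these data known. Named were all 10 members and, per list and comparison, up to 3 called genes with the largest change among those whose groups did not overlap and whose mean log2 CPM reached 1. A gene that this rule names among the other serpins is not reported here.

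No label says that replicates came from separate animals, so tests measure the spread between these libraries. No pair of replicates held the same counts. Alternatives were DESeq2 1.42.0 (size factors, Wald test), no filter or a mean count of at least 10, a fit over all 26 libraries, a replicate block, scaling without the members, and leaving out each library. Positions and coding sequences came from GENCODE M21 transcripts, promoters from RefSeq.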

Additional observations from a re-analysis of the deposited data

Results flagged for a closer look

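These differences between the effects of a pair of experiments passed the interaction test (edgeR's quasi-likelihood test, adjusted p under 0.05 over all genes tested). Each is a difference of log2 fold changes. The members were chosen with these contrasts known, so the values are descriptions.

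The knockout effect was lower than the cholic acid effect for the Serpina1 sum (-1.33), Serpina1a (-0.89), Serpina1b (-1.04), Serpina1c (-2.73) and Serpina1d (-1.48), and higher for Serpina3c (8.56) and Serpina3n (1.66). Serpina3c had at most 6 reads in any library of the cholic acid experiment and entered the fit through the double knockout libraries, where it is high. In the Serpina3n value, the floxed chow library 3 had 1245 CPM against 419 and 482 CPM in the other floxed chow livers.

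The hepatectomy effect was higher than the cholic acid effect for the Serpina1 sum (1.30), Serpina12 (3.25), Serpina1a (0.97), Serpina1c (0.80), Serpina1e (3.86), the Serpina3 sum (1.72), Serpina3k (1.80) and Serpina3n (2.13). These experiments also differ in strain, fasting and age.

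The knockout effect was lower than the high fat effect for the Serpina1 sum (-1.61), Serpina12 (-2.35), Serpina1a (-1.18), Serpina1b (-1.28), Serpina1c (-3.66), Serpina1d (-1.67) and Serpina3k (-1.07), and higher for Serpina3c (9.53). One set was whole liver and the other isolated hepatocytes, and Serpina3c differed between the hepatocyte replicates by more than between diets.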

How the results depend on the processing

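Values are log2 fold changes or numbers of genes called, and the cause of each change was not tested. With single libraries left out, the hepatectomy values ran from -0.13 to 0.052 (Serpina1 sum), -0.068 to 0.11 (Serpina3 sum), -0.47 to 0.53 (Serpina3c), -0.16 to 0.023 (Serpina3k), -0.029 to 0.058 (Serpina1b) and -0.074 to 0.22 (Serpina1e), none of which passed the test with all libraries in. High fat values ran from -9.05 to 3.18 (Serpina3c), -0.48 to 0.089 (Serpina1c), -0.039 to 0.61 (Serpina3m) and -1.31 to -0.76 (Serpina1 sum, which did not pass without the high fat library 1). Where this left 1 library in a group, it was assumed to vary like the others. Members called ran from 0 to 3 for TCPOBOP and 2 to 6 for cholic acid. DESeq2's Wald test called 1 member for TCPOBOP, and the fit over all 26 libraries called 8 for cholic acid. Serpina3m and Serpina3n in the knockout and Serpina12 after hepatectomy lost their calls in that fit.

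All genes called moved by over 1.5 times as follows. TCPOBOP had 0, against 109 by DESeq2's Wald test, 9 in the fit over all libraries and 0 to 1233 with a library left out. Hepatectomy had 4225, against 2554 to 4217 with a library left out. High fat had 3333, against 1735 in the fit over all libraries and 1141 to 2644 with a library left out. Cholic acid had 600, against 1445 by DESeq2's Wald test, 955 without a filter, 3132 in the fit over all libraries and 189 to 1345 with a library left out.

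Replicate numbers were not taken to pair the libraries: correlations of same-numbered deviations were 0.13, 0.158 and 0.0977 for cholic acid, where each library correlated best with its own number, -0.199, -0.0305 and -0.00611 for the knockout, and -0.075, 0.106 and -0.0114 for hepatectomy. With 2 numbers each, high fat (0.13) and TCPOBOP (0.121) could not settle it. With a replicate block 6 members were called for high fat and 3 for cholic acid, where Serpina1a (-0.87) and Serpina1c (-1.08) no longer passed. The block, no filter and scaling without the members were not run for the differences between effects.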

Other observations

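Serpina3c and the neighbouring pseudogene Serpina3e-ps both had their highest counts in the double knockout and in hepatocyte library 1 of each diet. Serpina3e-ps had 146, 128 and 156 reads in the double knockout and 0 in each wild-type library. In hepatocytes it had 34 reads in chow library 1 and 64 in high fat library 1, and 0 in library 2 of either diet. Both genes thus differed between the hepatocyte replicates more than between the diets. This was noticed after the values were seen, and no test was made of it. Serpina3h had 94, 57 and 71 reads in the double knockout, but 2 in chow hepatocyte library 1 and 12 in high fat library 1.

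The pseudogene Serpina4-ps1 varied widely among controls. It was at 350.1, 88.5 and 4.57 CPM in the floxed chow livers, 217, 205 and 245 CPM in sham livers, 38.3 and 34.8 CPM in chow hepatocytes and 4.23, 3.67 and 1.88 CPM in wild type. The double knockout held 0, 0 and 4 reads of it, and the cholic acid livers 39, 10 and 22.

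Rps3a1, a ribosomal protein gene with close relatives including Rps3a3, was at 0.433 to 0.574 CPM in the double knockout and 86.3 to 109 CPM in wild type, while Rps3a3 was at 77.0 to 100.5 CPM and 0.241 to 0.826 CPM. In the C3H/HeN livers Rps3a1 stood at 48.7 to 54.5 CPM and Rps3a3 at 54.9 to 68.0 CPM.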
